A study of Mus musculus with 6 samples.

Results

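S100 proteins are small calcium-binding proteins with a pair of EF-hand loops that mostly work as dimers. Transcripts of 8 of them, S100a8, S100a9, S100a6, S100a11, S100a10, S100a4, S100a1 and S100a13, were followed in bone marrow neutrophils of wild-type (WT) and progranulin knockout (PGRN KO) mice exposed to live Candida albicans. The 8 genes were taken by symbol from the deposited table of 54532 genes, in which each symbol occurred once. In PGRN KO neutrophils S100a1, S100a6 and S100a11 rose and S100a4 fell, while S100a8, S100a9, S100a10 and S100a13 did not pass the test. The calls of S100a11 and S100a4 were lost in some fits that left a library out, and those of S100a1 and S100a6 were kept in all. S100a8 and S100a9, the most abundant members, together held 10.9% to 11.6% of all FPKM in WT libraries and 11.8% to 13.7% in PGRN KO libraries. FPKM counts fragments per kilobase of exon, scaled to library size, so it can be compared between genes.

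The 6 libraries were 3 from WT and 3 from PGRN KO neutrophils, all of the C57BL/6J strain according to the labels. All cultures, including the WT cultures that the labels call controls, were challenged with Candida albicans for 6 h at a multiplicity of infection that the labels give as 1:1 and the study's text gives differently, and no unchallenged library was analysed here. The neutrophils were taken from the marrow with magnetic beads against Ly-6G, a surface protein of mature neutrophils. PGRN KO mice lack progranulin, a secreted glycoprotein encoded by Grn, with no tissue-specific driver named for the knockout, and came from another supplier than the WT mice. The study states that mice were matched for age and sex, and the sources used here give neither for the marrow donors of these libraries and do not say whether libraries of a genotype came from separate mice, so p-values measure the spread between these libraries, which may be technical.

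S100A8 and S100A9 pair into calprotectin, which fills the cytosol of neutrophils and, once released, starves microbes such as Candida albicans of zinc and manganese. Extracellular S100A8 and S100A9 also act as alarm signals on receptors such as TLR4 and RAGE. The other members act mainly inside cells, where S100A10, S100A11 and S100A6 bind annexins, S100A4 binds the heavy chain of non-muscle myosin, S100A1 is known from calcium handling in heart muscle, and S100A13 takes part in the export of interleukin-1 alpha and fibroblast growth factor 1 without a signal peptide.

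All 8 genes lie on mouse chromosome 3 (GRCm38). S100a1, S100a13, S100a4, S100a6, S100a8 and S100a9 occupy 185 kb, and S100a11 and S100a10 lie 2.82 Mb further along with 102 genes between. Promoter sequences were read from RefSeq (GRCm38.p6), where 7 of the 8 members had an entry and S100a10 had none. The promoters of the 4 members that changed and of the calprotectin pair are shown because they allow the sequences of members that rose, fell or did not pass the test to be compared. Each runs 5′ to 3′ on the strand of its gene, from 100 bases before the RefSeq start to 10 bases after it. Capitals mark matches to the motifs searched, and lines without capitals had none in these 110 bases. The windows are chr3:90668971-90669080 on the plus strand for S100a8, chr3:90695712-90695821 on the minus strand for S100a9, chr3:90612794-90612903 on the plus strand for S100a6, chr3:93520396-93520505 on the plus strand for S100a11, chr3:90514321-90514430 on the minus strand for S100a1 and chr3:90603670-90603779 on the plus strand for S100a4.
S100a8: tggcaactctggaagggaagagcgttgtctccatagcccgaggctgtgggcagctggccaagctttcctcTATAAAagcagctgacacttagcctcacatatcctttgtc
S100a9: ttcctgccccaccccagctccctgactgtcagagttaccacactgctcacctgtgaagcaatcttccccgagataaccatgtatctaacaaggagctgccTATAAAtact
S100a6: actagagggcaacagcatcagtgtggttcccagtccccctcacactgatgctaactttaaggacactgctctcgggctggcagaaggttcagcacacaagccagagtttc
S100a11: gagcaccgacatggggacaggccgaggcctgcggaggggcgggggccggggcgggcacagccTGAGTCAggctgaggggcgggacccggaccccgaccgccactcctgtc
S100a1: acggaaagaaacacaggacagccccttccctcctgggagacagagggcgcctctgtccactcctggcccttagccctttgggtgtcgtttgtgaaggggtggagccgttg
S100a4: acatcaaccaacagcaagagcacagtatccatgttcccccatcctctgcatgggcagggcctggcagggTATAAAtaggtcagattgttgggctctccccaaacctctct

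Letters of 4 kinds were searched on both strands over 300 bases, 250 before and 50 after the start, in the 7 member promoters and in all 32851 promoters of the RefSeq table. The TATA box letters TATAAA were found in 3 members and in 13.6% of all promoters. They began 30 bases before the start in S100a8 and 31 bases before it in S100a4, and at the first base after the annotated start in S100a9. C/EBP-type letters TTNNGNAA were found in S100a8, 117 bases before the start, and in S100a9, 236 and 130 bases before it, against 40.7% of all promoters. PU.1-type letters GAGGAAGT were found in S100a8, 172 bases before the start, and in S100a4, 18 bases into the transcript, against 3.20% of all promoters. AP-1-type letters TGANTCA were found in S100a11 alone, 136 and 38 bases before the start, against 7.81% of all promoters. S100a1, S100a6 and S100a13 held none of the 4. S100a1 and S100a13 start 42 bases apart on opposite strands in the deposited gene models, and their searched windows share 204 bases. No matches overlapped each other. A match describes letters in these windows and is no measurement of binding.

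Depth was similar in all libraries, with 17290604 to 17799798 fragments on genes in WT and 17087344 to 18821091 in PGRN KO. Grn (ENSMUSG00000034708), the deleted gene, was at 168.4, 161.3 and 166.1 FPKM in the WT libraries and at 0.242, 0.206 and 0.747 in the PGRN KO libraries. Neutrophil markers were abundant in both genotypes, with a summed level of 25307 to 26309 FPKM over 12 genes in WT and of 25233 to 27873 in PGRN KO, and 2 of the 12 were higher and 2 lower in PGRN KO. Markers of other marrow cells moved with genotype, and fewer cells of a type and less RNA per cell cannot be told apart in such bulk samples. All 6 promyelocyte markers were higher in PGRN KO, with summed levels of 134.2 to 150.3 FPKM in WT and 615.9 to 678.4 in PGRN KO. Of 6 tested B and plasma cell markers 5 were higher and 1 lower (447.7 to 463.3 against 2173 to 2468 FPKM), and of 6 basophil, mast cell and eosinophil markers 5 were higher (3.37 to 3.93 against 13.96 to 18.7 FPKM). Of 9 tested monocyte and macrophage markers 5 were lower and 1 higher (548.6 to 557.0 against 562.7 to 710.7 FPKM), and of 3 tested dendritic cell markers 2 were lower (313.4 to 334.6 against 280.6 to 316.9 FPKM). Single genes made up most of several of these sums. Ly6c2, the 1 monocyte marker called higher, averaged 401.1 FPKM in WT and 521.2 in PGRN KO. The monocyte sum thus ran opposite to the 5 markers that were lower. Igkc, of the B and plasma cell list, averaged 414.8 and 2224 FPKM. Bst2, a dendritic cell marker that did not pass, averaged 223.3 and 235.4 FPKM. Of 4 tested erythroid markers 3 were higher (0.975 to 3.14 against 5.46 to 6.21 FPKM), and of 2 tested T and NK cell markers 1 was higher (2.51 to 3.29 against 7.54 to 8.67 FPKM), with Cd3e and Cd3g at 0 in all libraries. Over all genes tested for genotype, 7.94% were higher and 9.95% lower in PGRN KO. The part of these cells in the values of the S100 genes was not tested.

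The levels of the 8 members differed widely. In both genotypes the order of the means was S100a9, S100a8, S100a11, S100a6, S100a10, S100a13, S100a1 and S100a4. Within each genotype every library value of a gene in this order lay above every library value of the next gene, so that no neighbours in the order overlapped. The steps were of very unequal size. In WT the mean FPKM of S100a9 was 1.75 times that of S100a8, S100a8 was 25.9 times S100a11, S100a11 was 1.88 times S100a6, S100a6 was 10.3 times S100a10 and S100a10 was 1.52 times S100a13. S100a13 was 3.92 times S100a1 and S100a1 was 2.20 times S100a4 in WT, whereas the same steps were 1.88 and 19.5 in PGRN KO.

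**Figure D1:**
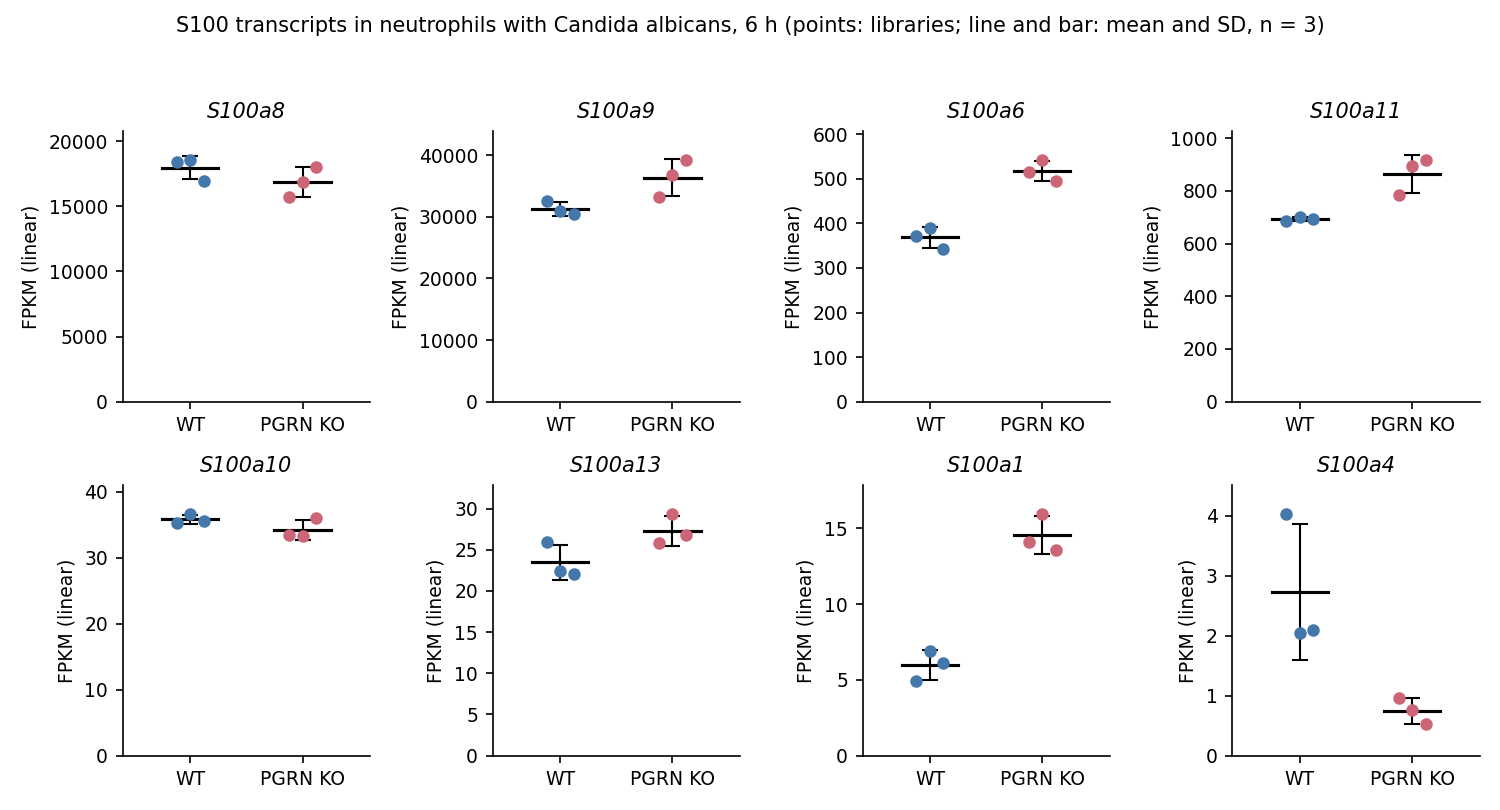
FPKM on linear axes starting at 0 for each S100 transcript, with 1 point per library, a line at the mean and a bar of 1 SD (n = 3 per genotype), WT in blue and PGRN KO in red. The PGRN KO libraries lie above all WT libraries for S100a9, S100a6, S100a11 and S100a1 and below them for S100a4, and the genotypes overlap for S100a8, S100a10 and S100a13.

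The test of genotype was limma on log2(FPKM + 1), fitted over 14807 genes (those averaging 0.1 FPKM or more), with Benjamini-Hochberg adjustment over all of them and a threshold of 0.05. All 8 members passed this minimum. Of the 8 members 4 passed the threshold (50%), against 17.9% of all tested genes. When only genes averaging at least 1 FPKM were fitted, as all 8 members did, 2868 of 9249 genes passed and still 4 of the 8 members. Of the members 3 rose in PGRN KO, where 7.94% of tested genes rose, and 1 fell, where 9.95% of tested genes fell. In 5 of the 8 members the libraries of the genotypes did not overlap, 4 of them with PGRN KO above and 1 below, against 37.7% of tested genes without overlap. The median log2 fold change was 0.21 over the members and 0.0026 over all tested genes, and 5 members had a value above 0 and 3 below. The family therefore held both directions, and its members are given by role. With 3 libraries against 3, an exact two-sided permutation test of a single gene cannot give a p below 0.10, so the tests given are those of the fit across genes.

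S100a8 (ENSMUSG00000056054, 90668978 to 90670035, plus strand), the calprotectin subunit that is the smaller of the pair, was measured at 18358, 18549 and 16942 FPKM in the WT libraries and at 15680, 16866 and 17991 in the PGRN KO libraries. The genotypes overlapped, since the highest PGRN KO library exceeded the lowest WT library. Mean levels were 17949 ± 878 FPKM for WT (SD, n = 3) and 16846 ± 1156 FPKM for PGRN KO (SD, n = 3), resting on 632470 and 652237 fragments. The difference of -0.09 on the log2 scale (standard error 0.072) had a limma adjusted p of 0.435, and its 95% interval corresponded to a PGRN KO level between 0.833 and 1.06 times that of WT. S100a8 ranked 3 among all genes by FPKM in every library.

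S100a9 (ENSMUSG00000056071, 90692632 to 90695721, minus strand), the other calprotectin subunit, was measured at 32606, 30946 and 30448 FPKM in the WT libraries. The PGRN KO libraries held 33148, 36753 and 39213 FPKM. All PGRN KO libraries were above all WT libraries, although the gap between the nearest libraries was small beside the spread within PGRN KO. S100a9 ranked 2 among all genes in each WT library, where Fth1, the heavy chain of ferritin, had the higher mean, and 1 in each PGRN KO library. Mean levels were 31333 ± 1130 FPKM for WT (SD, n = 3) and 36371 ± 3050 FPKM for PGRN KO (SD, n = 3), resting on 830730 and 1059623 fragments. The log2 fold change of 0.21 (95% interval 0.026 to 0.40) had an unadjusted p of 0.0312 and a limma adjusted p of 0.114. It did pass, at 0.33, when libraries were scaled to their plain totals of fragments (limma adjusted p = 0.0286). In voom, limma's weighting of counts, run on the recovered fragments, it passed at 0.33 (limma adjusted p = 1.353e-05), but voom also scales by totals of fragments. After quantile normalization it was 0.22 (limma adjusted p = 0.0021). That p was fixed by the ranks, since equal ranks receive equal values and S100a9 had the same rank in all libraries of a genotype. Without PGRN KO replicate 4 it passed on the deposited scale (limma adjusted p = 0.0286).

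As the calprotectin genes share each library, their ratio is free of the library scaling. The ratio of S100a9 to S100a8 FPKM was 1.78, 1.67 and 1.80 in WT replicates, against 2.11, 2.18 and 2.18 in PGRN KO replicates. The ratios of the genotypes did not overlap, and the nearest libraries of the genotypes stood further apart than the libraries within either. On average the ratio was 1.75 ± 0.069 for WT (SD, n = 3) and 2.16 ± 0.038 for PGRN KO (SD, n = 3). A ratio shows unequal change of the pair and does not show which of them changed. In shares of all FPKM, S100a8 held 4.19%, 4.24% and 3.91% in WT and 3.80%, 4.08% and 4.30% in PGRN KO. S100a9 held 7.43%, 7.07% and 7.03% in WT and 8.04%, 8.88% and 9.37% in PGRN KO, again without overlap. In fragments the pair took 2.66% to 2.88% of each WT library and 2.94% to 3.44% of each PGRN KO library, less than in FPKM because both transcripts are short, with 694 exon bases for S100a8 and 522 for S100a9.

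**Figure D2:**
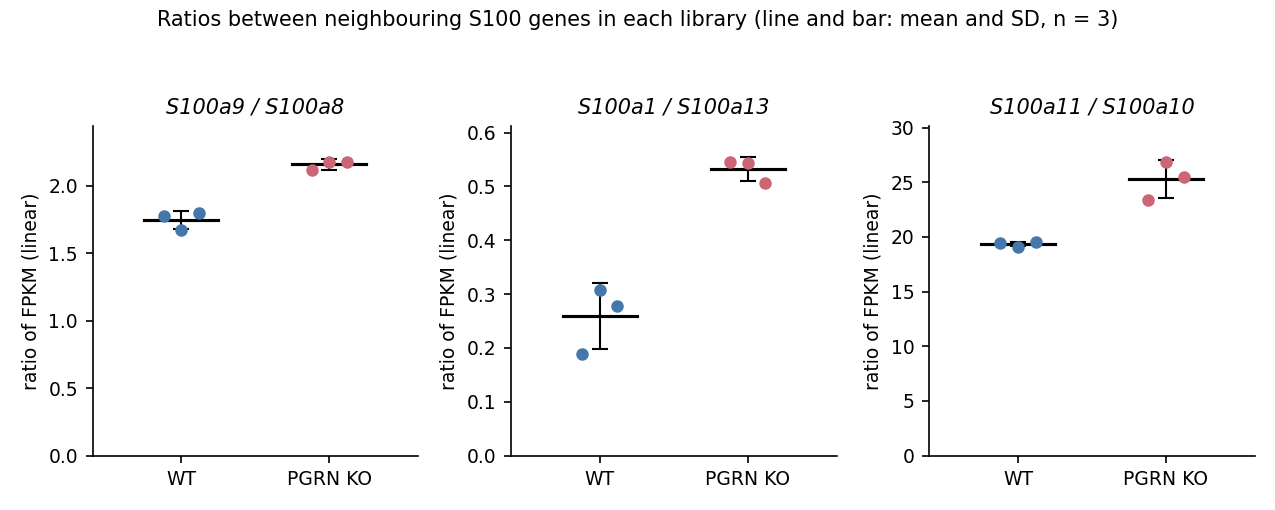
Ratios of FPKM between neighbouring S100 genes in each library on linear axes starting at 0, with 1 point per library and the mean with 1 SD (n = 3 per genotype). S100a9 over S100a8 lay between 1.67 and 1.80 for WT and between 2.11 and 2.18 for PGRN KO, and the ratios of S100a1 to S100a13 and of S100a11 to S100a10 were likewise higher in every PGRN KO library.

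S100a6 (ENSMUSG00000001025, 90612882 to 90624181, plus strand), also called calcyclin, rose in PGRN KO neutrophils. Its level was 372.5, 390.1 and 343.3 FPKM in WT replicates, against 514.4, 542.3 and 496.0 FPKM in PGRN KO replicates. The lowest PGRN KO library stood well above the highest WT library, and the spread within genotypes was about the same. From 368.7 ± 23.6 FPKM in WT (SD, n = 3) the mean rose to 517.6 ± 23.3 in PGRN KO (SD, n = 3), a difference of 40.4%. On the log2 scale it was 0.49 (standard error 0.061, 95% interval 0.35 to 0.63, limma adjusted p = 0.00344), from 25582 and 39344 fragments. S100a6 kept this call under every alternative tried, with log2 fold changes from 0.44 to 0.61.

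S100a11 (ENSMUSG00000027907, 93520488 to 93526287, plus strand), also called calgizzarin and the member whose printed promoter holds the AP-1-type letters, rose as well. It was at 684.7, 699.8 and 693.2 FPKM in WT and at 782.8, 895.9 and 917.3 FPKM in PGRN KO. The WT libraries differed from each other by very little, and all PGRN KO libraries lay above them with a wider spread. From 692.6 ± 7.54 FPKM in WT (SD, n = 3) the mean rose to 865.3 ± 72.2 in PGRN KO (SD, n = 3), a difference of 24.9%. The log2 fold change of 0.32 (standard error 0.065, 95% interval 0.16 to 0.47) had a limma adjusted p of 0.0193. The call was lost without WT replicate 1, 2 or 3 or without PGRN KO replicate 5, with limma adjusted p of 0.0655, 0.0667, 0.0571 and 0.0760, and the value moved to 0.50 after quantile normalization. A processed pseudogene, S100a11-ps, was listed at 0 in all libraries, and the sources used here do not give how fragments that match both copies were counted.

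S100a10 (ENSMUSG00000041959, 93555080 to 93564643, plus strand), the annexin A2 partner p11, which unlike the other members does not bind calcium, did not pass the test. It was at 35.3, 36.6 and 35.5 FPKM in the WT libraries and at 33.4, 33.3 and 35.9 in the PGRN KO libraries. The genotypes overlapped. Its log2 fold change was -0.064 (95% interval -0.17 to 0.047, limma adjusted p = 0.404), from means of 35.8 ± 0.715 and 34.2 ± 1.48 FPKM (SD, n = 3 each). S100a11 lies 28.8 kb from S100a10, and their ratio separated the genotypes, at 19.4, 19.1 and 19.5 in WT and 23.4, 26.9 and 25.5 in PGRN KO.

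S100a1 (ENSMUSG00000044080, 90511034 to 90514392, minus strand), the heart muscle member, whose printed promoter held none of the letters searched, showed the largest log2 fold change above 0 among the 8 in every fit tried. Its level was low in WT, at 4.92, 6.91 and 6.14 FPKM, and was 14.1, 15.9 and 13.6 in the PGRN KO libraries. These levels rest on 58, 80 and 73 fragments in WT and on 175, 201 and 185 in PGRN KO, so every PGRN KO library held more than any WT library. The means were 5.99 ± 1.00 and 14.5 ± 1.25 FPKM (SD, n = 3 each), so the PGRN KO mean was 2.43 times that of WT. On the log2(FPKM + 1) scale the difference was 1.16 (standard error 0.12, 95% interval 0.88 to 1.44, limma adjusted p = 0.00159). Its call was kept under every alternative, with log2 fold changes from 1.05 to 1.40. By FPKM S100a1 ranked between 4285 and 5127 among all genes in WT libraries and between 2509 and 2837 in PGRN KO libraries.

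S100a13 (ENSMUSG00000042312, 90514435 to 90524581, plus strand), the export factor whose gene stands head to head with S100a1, was at 25.9, 22.5 and 22.0 FPKM in the WT libraries and at 25.9, 29.3 and 26.8 in the PGRN KO libraries. WT replicate 1 and PGRN KO replicate 4 were almost equal, so the genotypes just overlapped. The means were 23.5 ± 2.13 and 27.3 ± 1.81 FPKM (SD, n = 3 each), and the log2 fold change of 0.21 (95% interval 0.026 to 0.40) had a limma adjusted p of 0.113. It passed on plain totals of fragments, at 0.33 (limma adjusted p = 0.0322), and in voom on the recovered fragments, at 0.34 (0.0143). Voom also scales by totals of fragments, so these 2 results share a scaling. Relative to the shift that each gave to genes with a mean of at least 10 FPKM, S100a13 was at 0.21 and 0.22. The ratio of S100a1 to S100a13 was 0.190, 0.308 and 0.279 in WT and 0.546, 0.544 and 0.507 in PGRN KO. The level of S100a1 relative to S100a13 was thus higher in every PGRN KO library, while the promoter windows of the pair share most of their bases. No exon bases are shared between the pair in the annotation.

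S100a4 (ENSMUSG00000001020, 90603771 to 90606045, plus strand), the myosin-binding member, has a printed promoter that holds TATAAA, like those of S100a8 and S100a9. S100a4 was the least abundant member and fell. It was at 4.03, 2.05 and 2.10 FPKM in the WT libraries and at 0.959, 0.754 and 0.523 in the PGRN KO libraries. WT replicate 1 stood above the other WT libraries, and all PGRN KO libraries were below all WT libraries. The fragments behind them numbered 40, 20 and 21 in WT and 10, 8 and 6 in PGRN KO. The WT mean of 2.73 ± 1.13 FPKM was 3.66 times the PGRN KO mean of 0.745 ± 0.218 (SD, n = 3 each). The fitted difference was -1.06 on the log2 scale (standard error 0.21, 95% interval -1.56 to -0.57, limma adjusted p = 0.0166), and since adding 1 to the FPKM compresses low values, it was -1.71 with 0.1 added instead and -1.67 in voom. The call was lost without PGRN KO replicate 5 (limma adjusted p = 0.0602) or replicate 6 (0.0531), and 302 of the 584 exon bases of S100a4 (51.7%) are shared with Gm42674, a gene model on the same strand that was listed at 0 in all libraries. The sources used here do not give how fragments in the shared bases were counted, so the level of S100a4 and its place in the order of the members are uncertain.

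The spread between libraries differed between members. Over the 3482 genes with a mean of at least 10 FPKM the median coefficient of variation was 4.33% in WT and 5.85% in PGRN KO. S100a11 varied by 1.09% in WT and 8.35% in PGRN KO, and S100a9 by 3.61% and 8.39%. S100a6 varied by 6.41% and 4.51%, and S100a10 by 2.00% and 4.34%. The thinly covered S100a4 varied by 41.4% in WT and 29.3% in PGRN KO, and S100a1 by 16.8% and 8.57%.

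The scaling of the libraries bore on the members with small differences. The deposited FPKM were scaled as median-of-ratios size factors would scale them, and plain totals of fragments shifted the genes with a mean of at least 10 FPKM by 0.12 on the log2 scale towards PGRN KO. Of the 2648 genes called in all, 1175 were higher in PGRN KO (44.4%), a share that became 69.7% on plain totals and 70.5% with voom. The log2 fold changes of S100a8 and S100a10 turned positive on plain totals, at 0.028 and 0.053, and in voom, at 0.029 and 0.056, and remained below the threshold in both. Relative to the shift of 0.12 on plain totals, S100a8 was at -0.088, S100a10 at -0.062, S100a13 at 0.21 and S100a9 at 0.22, close to their values on the deposited scale. S100a6, S100a11 and S100a1 were higher, and S100a4 lower, under every scaling.

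**Figure D3:**
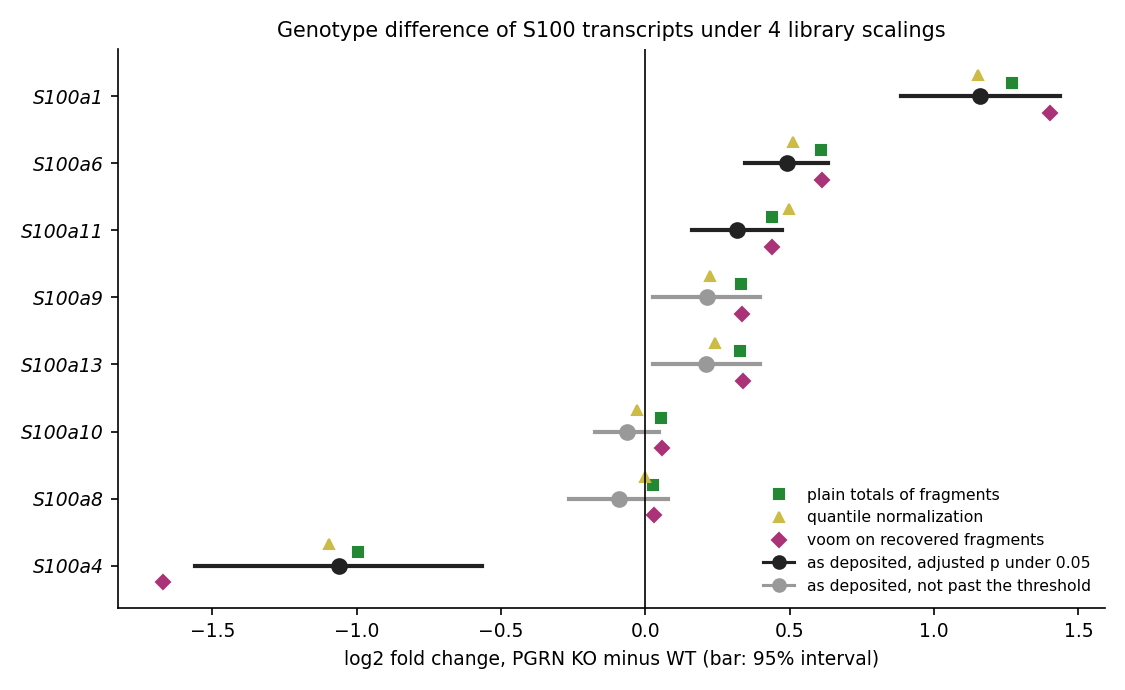
Log2 fold change of each S100 transcript, PGRN KO minus WT, with 95% intervals on the deposited scale (black where the adjusted p was under 0.05, grey where not) and the values under 3 other scalings as coloured symbols. S100a1, S100a6, S100a11, S100a9 and S100a13 lie above 0 under all 4 scalings and S100a4 below, while S100a8 and S100a10 cross 0 on plain totals and in voom, and S100a8 lies at 0 after quantile normalization. Plain totals and voom both scale by totals of fragments.

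Other S100 genes were scarce in these neutrophils. Of 10 listed, 9 were in the table and S100a7l2 was not analysed here. S100a2 and S100a7a passed the minimum level and overlapped between genotypes, with means of 0.312 and 0.283 FPKM for S100a2 in WT and PGRN KO from 5 fragments each, and of 0.329 and 0.339 FPKM for S100a7a from 23 and 26 fragments. Their log2 fold changes were -0.022 and 0.011, with limma adjusted p of 0.929 and 0.946. S100a3, S100a14, S100a16 and S100b had fragments but lay under the minimum, with at most 13 fragments over the 6 libraries, and S100a5, S100g and S100z were at 0 in all. The 95% interval of the log2 fold change was -0.32 to 0.28 for S100a2 and -0.19 to 0.21 for S100a7a, and no test was made of the genes under the minimum.

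The 8 tested neighbours of the cluster, defined as all other tested genes within 200 kb of its ends, were also compared. Of these 8, 1 (Chtop) fell and 7 did not pass, and their median log2 fold change was 0.035. The called share was 12.5%, against 17.9% of all tested genes. Chtop, a chromatin-bound RNA export factor near S100a1, had means of 26.4 ± 2.59 FPKM for WT and 21.1 ± 0.615 FPKM for PGRN KO (SD, n = 3 each), and its log2 fold change was -0.30 (limma adjusted p = 0.0355). That call was lost on plain totals of fragments (limma adjusted p = 0.127) and without WT replicate 1 or 2 or any one PGRN KO replicate, with adjusted p between 0.0670 and 0.117. S100a1 (1.16), S100a6 (0.49) and S100a4 (-1.06) had larger log2 fold changes, in absolute size, than any of these neighbours.

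**Figure D4:**
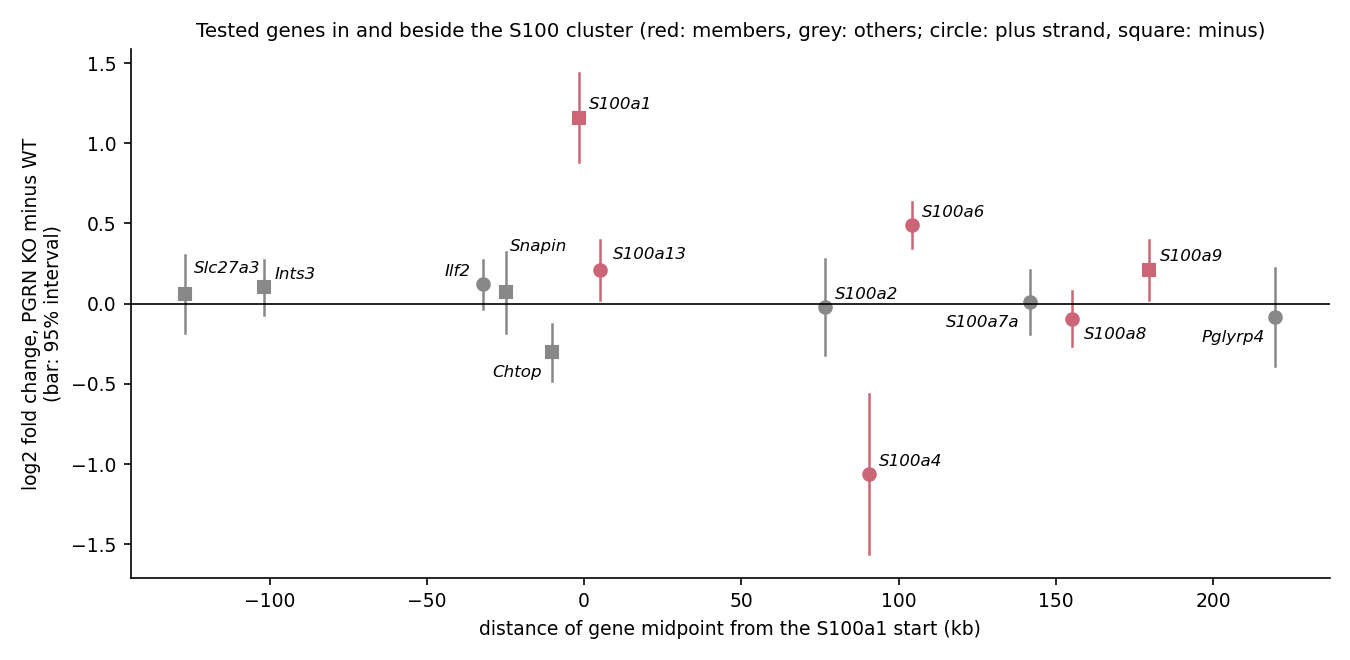
Log2 fold change, PGRN KO minus WT, with its 95% interval for the tested genes in and beside the cluster of 6 S100 genes, placed by the distance of each gene's midpoint from the start of S100a1 in kb (red, S100 members; grey, other tested genes; circles, plus strand; squares, minus strand). S100a1 (1.16), S100a6 (0.49), Chtop (-0.30) and S100a4 (-1.06) passed the threshold on the deposited scale, and the other tested genes shown did not.

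Receptors and co-receptors of S100A8 and S100A9 were read from a list of 10 genes, all tested, of which 1 rose, 1 fell and 8 did not pass, with a median log2 fold change of -0.044. Ager, which encodes RAGE, rose from 1.78 ± 0.157 FPKM (SD, n = 3) to 3.36 ± 0.701 (SD, n = 3), a log2 fold change of 0.64 (limma adjusted p = 0.0150), and lost the call without WT replicate 1 (adjusted p = 0.0521). Alcam, an adhesion molecule of the immunoglobulin family, fell from 30.4 ± 1.29 to 19.5 ± 0.785 FPKM, a log2 fold change of -0.61 (limma adjusted p = 0.00088). Cd14, the co-receptor that hands ligands to TLR4 and the most abundant gene of the list, averaged 2979 ± 133 FPKM for WT and 2982 ± 111 FPKM for PGRN KO, with a log2 fold change of 0.0016 (95% interval -0.13 to 0.13). Tlr4 itself was at 14.3 ± 0.630 and 12.3 ± 1.53 FPKM, with overlapping libraries and a limma adjusted p of 0.168. The called share of this list was 20%, near the 17.9% of all tested genes. The calls were on Ager and Alcam, which were measured at far lower levels than Cd14.

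Intracellular binding partners were read from a list of 11 genes, of which 1 rose, 4 fell and 6 did not pass, with a median log2 fold change of -0.099. The called share was 45.5%, against 17.9% of all tested genes. All 11 averaged above 1 FPKM, and when only genes averaging at least 1 FPKM were fitted, 2868 of 9249 passed. Anxa6, a membrane-binding annexin that S100A6 and S100A1 bind, fell from 21.9 ± 1.10 FPKM (SD, n = 3) to 11.3 ± 0.780 (SD, n = 3), a log2 fold change of -0.90 (limma adjusted p = 0.0005). Anxa4 fell from 20.3 ± 0.967 to 11.4 ± 0.865 FPKM, a log2 fold change of -0.79 (limma adjusted p = 0.00089), and Anxa5, known for its binding to phosphatidylserine, fell by 0.33 on the log2 scale from 233.1 ± 4.17 FPKM (limma adjusted p = 0.0038). These 3 calls were kept under every alternative. Anxa2, which forms a tetramer with S100A10, was higher at 361.4 ± 19.3 against 315.4 ± 2.29 FPKM, a log2 fold change of 0.19 (limma adjusted p = 0.0356), and Ahnak, the giant scaffold that joins this complex, was lower at 5.93 ± 0.468 against 7.69 ± 0.661 FPKM (log2 fold change -0.33, limma adjusted p = 0.0352). Among fits without 1 library, the call of Anxa2 was kept only without PGRN KO replicate 4 and that of Ahnak only without WT replicate 1, with adjusted p of up to 0.122 and 0.107 in the others. Anxa1, the partner of S100A11 and the most abundant gene of the list, was at 343.2 ± 2.07 and 394.6 ± 53.0 FPKM (log2 fold change 0.19, limma adjusted p = 0.216). Myh9, the myosin heavy chain that S100A4 binds, had a log2 fold change of -0.064 (limma adjusted p = 0.589), and the S100A6 partners Cacybp and Sugt1 had values of -0.010 and 0.12 with adjusted p of 0.966 and 0.312.

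Transcription factors with known roles in myeloid gene expression were read from a list of 7 genes, of which 1 rose, 2 fell and 4 did not pass, with a median log2 fold change of -0.25. The called share was 42.9%, against 17.9% of all tested genes. All 7 averaged above 1 FPKM, where 2868 of 9249 genes passed when fitted alone. Cebpa, a factor of early granulocyte development, fell from 12.6 ± 0.672 FPKM (SD, n = 3) to 9.13 ± 0.319 (SD, n = 3), a log2 fold change of -0.43 (limma adjusted p = 0.0043). Stat3, the signal transducer of G-CSF and interleukin-6, fell from 37.2 ± 0.697 to 29.0 ± 1.53 FPKM, a log2 fold change of -0.35 (limma adjusted p = 0.0056), and both calls were kept under every alternative. Cebpd was higher at 37.8 ± 0.984 against 31.5 ± 2.33 FPKM, a log2 fold change of 0.26 (limma adjusted p = 0.0310), a call lost in all 6 fits without 1 library (adjusted p 0.0524 to 0.0850). Cebpb, the most abundant of the list, was at 1578 ± 75.6 and 1301 ± 193 FPKM with overlapping libraries (limma adjusted p = 0.110). Over the neighbours and the lists of other S100 genes, receptors, binding partners and transcription factors together, 11 of 36 tested genes passed, against 17.9% of all tested genes. Of the 11, 3 were higher and 8 lower, a split that became 5 higher and 6 lower on plain totals of fragments and 9 and 8 in voom. When only genes averaging at least 1 FPKM were fitted, 12 of 30 related genes passed, against 2868 of 9249 genes. Without a filter on low values Chtop, Anxa2, Ahnak and Cebpd missed the threshold as well (limma adjusted p 0.0525 to 0.0667), as did Chtop, Anxa2 and Cebpd when eBayes was run without trend (0.0514 to 0.0745) and Ahnak on plain totals of fragments (0.0916).

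**Figure D5:**
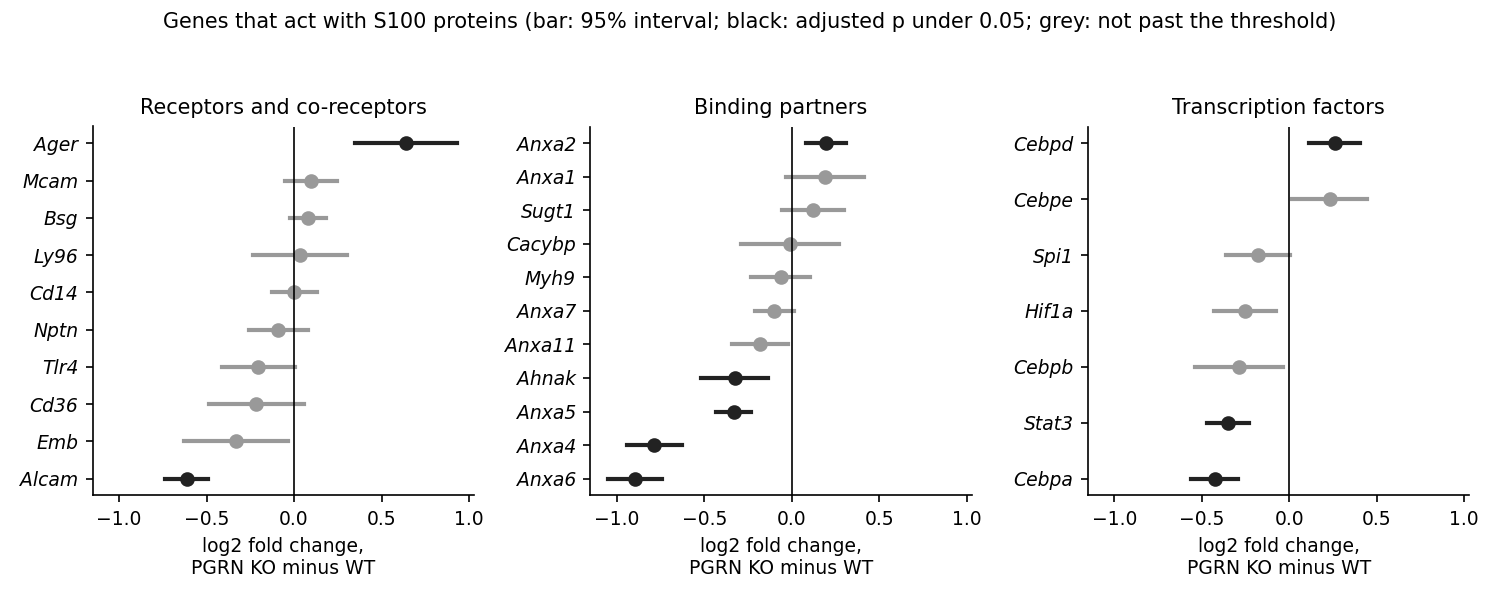
Log2 fold change, PGRN KO minus WT, with 95% intervals for receptors and co-receptors of S100A8 and S100A9, for binding partners of S100 proteins and for myeloid transcription factors (black, adjusted p under 0.05 on the deposited scale; grey, not past the threshold). Anxa6 (-0.90), Anxa4 (-0.79) and Alcam (-0.61) lie lowest and Ager (0.64) highest.

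Genes whose levels followed those of the calprotectin subunits most closely over the 6 libraries were sought among 3481 genes with a mean of at least 10 FPKM, by the mean absolute distance between log2 profiles centred on their own means. Nearest to S100a8 were Fbxo6, an F-box protein of ubiquitin ligases, at 0.021, Supt4a, a transcription elongation factor, at 0.029, and Cks2, a cyclin-dependent kinase subunit, at 0.029. Nearest to S100a9 were Tuba4a, an alpha tubulin, at 0.014, Txndc12, a thioredoxin-like protein of the endoplasmic reticulum, at 0.018, and Itm2b, a membrane protein, at 0.022. S100a8 and S100a9 lay 0.15 apart, so neither was near the top of the order of the other, with S100a9 at place 2348 in the order from S100a8 and S100a8 at place 1601 in the order from S100a9. Of the other members S100a10 was nearest to S100a8, at place 77 and a distance of 0.047, and S100a11 was nearest to S100a9, at place 108 and a distance of 0.053. These distances describe 6 libraries of 2 genotypes and carry no test.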

How the data were processed

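All 6 libraries were used, grouped by the genotype label. The authors deposited FPKM per gene. The study's methods give HISAT and HTSeq, and the submitters' processing notes name HISAT2 2.0.5, featureCounts 1.5.0-p3 and DESeq2 1.20.0, with builds mm10 and GRCm38. The sources used here do not state whether counting used strand. Each deposited FPKM was multiplied by exon length and divided by the value of 1 fragment, which was estimated for each library from the same data. Every value above 0 then came within 0.05 of an integer count of fragments, and these counts gave the depth behind each value (counting error only). No replicate pair matched within sampling noise (chi-square per degree of freedom at least 2.83). From the FPKM, log2(FPKM + 1) was fitted with limma 3.58.1 (lmFit, eBayes with trend, two-sided) in R 4.3.3, for genes averaging 0.1 FPKM or more. The fit was tested on simulated data, and summaries used Python 3.11.15, numpy 2.4.6 and pandas 2.3.3. The members and lists were chosen with earlier results of these data known. The rule for named genes took the 8 members, other tested S100 genes, Grn, called genes and the most abundant gene of each related list, and the 3 nearest profiles of S100a8 and S100a9. Tlr4, Myh9, Cacybp, Sugt1, Cd3e, Cd3g, Ly6c2, Igkc, Bst2, the untested S100 genes, S100a11-ps, Gm42674 and Fth1 were named after their values were seen. Alternatives were another pseudocount, 2 other filters, 4 other scalings or tests (plain totals of fragments, median of ratios, quantile, voom), eBayes without trend, protein-coding genes alone, and each library left out in turn.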

Additional observations from a re-analysis of the deposited data

How the results depend on the processing

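The log2 fold changes of S100a6 and S100a1 kept their direction and their side of the threshold under all alternatives. The count of S100 members called, 4, was 6 on plain totals of fragments and in voom, 5 after quantile normalization and 2 (without PGRN KO replicate 5) to 5 (without PGRN KO replicate 4) with each library left out. Over all genes the count of 2648 was 4238 in voom and 1385 to 2229 with a library left out, and over the related genes the count of 11 was 7 without a filter on low values, 17 in voom and 7 to 11 with a library left out. Plain totals gave log2 fold changes of 0.33 for S100a9 (adjusted p = 0.0286), 0.33 for S100a13 (0.0322), 0.028 for S100a8 and 0.053 for S100a10 in limma. Voom gave 0.33 for S100a9 (adjusted p = 1.353e-05), 0.34 for S100a13 (0.0143), 0.029 for S100a8 and 0.056 for S100a10 in limma, so S100a8 and S100a10 turned sign under both. Plain totals and voom are not separate checks of scaling, since both scale by totals of fragments. Quantile normalization gave 0.22 for S100a9 (limma adjusted p = 0.0021) and 0 for S100a8. The 0 arose by construction, since S100a8 had the same rank in every library and equal ranks receive equal values. S100a9 likewise had the same rank in all libraries of a genotype, so no spread was left within genotypes. Its p after quantile normalization, and its place among the 5 members called there, were thus fixed by the ranks. With a library left out, the log2 fold changes ranged from 0.16 to 0.28 for S100a9, from -1.19 to -0.83 for S100a4 and from 0.27 to 0.39 for S100a11. The S100a4 value was -1.71 with 0.1 added to the FPKM and -1.67 in voom. The cause of the other differences was not tested. No paired analysis was possible because the genotypes share no replicate numbers. Fragment numbers limit S100a4 most, with 81 in WT and 24 in PGRN KO.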
